A study of Homo sapiens with 14 samples.

Results

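Expression of 10 genes of the BCL2 family of apoptosis regulators was compared in 2 human lung adenocarcinoma cell lines with and without an aurora kinase inhibitor. The members were BCL2, BCL2L1, MCL1, BAK1, BCL2L11, BID, PMAIP1, BMF, BIK and BAD, taken by gene symbol from a named list. That list was chosen with earlier results of these data known. All 10 were found among the 26760 entries of the A549 table and the 26732 gene entries of the H1792 table. A549 and H1792 are established epithelial tumor lines grown in culture. The groups were A549 with DMSO (n = 4), A549 with 0.1 µM AMG900 (n = 4), H1792 with DMSO (n = 3) and H1792 with 0.1 µM AMG900 (n = 3), where AMG900 is a small molecule that inhibits the aurora kinases of mitosis, DMSO is its solvent and RNA was taken after 48 h. The treatment text gives 3 dishes per treatment while 4 A549 libraries per treatment are listed, and all 14 libraries were used. Each group is a single cell line in a dish, no genetic change is labelled, and the lines were grown in different media.

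Proteins of this family set the threshold for apoptosis at the outer membrane of the mitochondrion. The antiapoptotic members BCL2, BCL-XL (encoded by BCL2L1) and MCL1 hold the other members in a surface groove, the effector BAK (encoded by BAK1) forms pores through which cytochrome c leaves, and the BH3-only members insert a short helix, the BH3 domain, into the groove of the antiapoptotic members or act on the effectors directly. Among the BH3-only members, BIM (encoded by BCL2L11) and BID are regarded as activators of effectors, and NOXA (encoded by PMAIP1) acts mainly through MCL1. BMF, BIK and BAD are regarded as sensitizers, which act by binding antiapoptotic members. Drugs that hold cells in mitosis are known to act on this balance, in which MCL1 is a short-lived protein. Only mRNA was measured here, so protein level, phosphorylation, cell death and whether AMG900 held the cells in mitosis were not.

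The coding bases of the BH3 core are shown for the effector and the 6 BH3-only members, because it is the part of these proteins that binds the groove. They were read from the canonical transcript of each gene in the GENCODE annotation of GRCh37 (build hg19), 63 bases each, 5′ to 3′ on the coding strand. Capitals mark the codon of the conserved leucine and the pair of codons for a small residue and the conserved aspartate, found by the spacing of 3 codons between them. The same spacing occurs once each in BCL2 (codon 97), BCL2L1 (codon 90) and MCL1 (codon 213), so it does not set the genes shown apart from the antiapoptotic members.
BAK1: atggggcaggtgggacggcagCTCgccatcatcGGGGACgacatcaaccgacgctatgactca
BCL2L11: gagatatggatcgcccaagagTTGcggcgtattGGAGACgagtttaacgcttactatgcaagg
BID: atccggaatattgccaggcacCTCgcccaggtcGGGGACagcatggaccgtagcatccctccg
PMAIP1: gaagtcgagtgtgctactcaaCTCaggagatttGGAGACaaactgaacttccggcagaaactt
BMF: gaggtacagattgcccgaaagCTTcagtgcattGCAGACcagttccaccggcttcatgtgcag
BIK: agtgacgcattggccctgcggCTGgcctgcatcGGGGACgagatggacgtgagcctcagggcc
BAD: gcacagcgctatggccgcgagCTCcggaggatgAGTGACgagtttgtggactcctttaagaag
The BAK1 stretch lies in coding exon bases of exon 4 of 6 (chr6:33543152-33543214, minus strand), that of BCL2L11 in exon 3 of 4 (chr2:111907659-111907721, plus strand) and that of PMAIP1 in exon 2 of 2 (chr18:57569884-57569946, plus strand). The spacing occurs at 2 places in BID, and the one at codon 90 of 195, in exon 4 of 6 (chr22:18222169-18222231, minus strand), is shown. BMF carries it in exon 4 of 5 (chr15:40396384-40396446, minus strand). In BIK (chr22:43520188-43523763, plus strand) and BAD (chr11:64037807-64039144, minus strand) the stretch crosses an exon junction, so the interval given also spans an intron. PMAIP1 has the shortest coding sequence of these genes, 54 codons, and its leucine codon is codon 29.

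Total counts ranged from 4254644 to 79902934 per library and were higher in every H1792 library than in every A549 library. A549 DMSO replicate 1 was the smallest library and held the highest or lowest value of its group for BCL2, MCL1, BAK1, BCL2L11, BIK and BAD, so A549 results are also given without it where they depend on it. Of the 5 epithelial markers, 4 had a mean of at least 1 CPM (counts scaled to a common library size) in every group, the exceptions being EPCAM in A549 and CDH1 in H1792, with means of at most 0.34 and 0.90. Of the 5 haematopoietic markers, CD14 alone reached a mean of 1 CPM, at 4.27 with DMSO and 10.2 with AMG900 in A549, while CD3E had a mean of 0 there. The summed level of the 4 endothelial markers was at most 16.7 CPM in any library. Some markers moved with the drug: by edgeR, all 4 epithelial markers tested rose in A549, from 1.24-fold for KRT18 and 1.31-fold for KRT8 to 1.77-fold for CDH1 and 2.99-fold for KRT19 (2 of 4 with GC content corrected), as did CD14 (2.41-fold). In H1792 KRT19 (1.46-fold, a call lost with GC content corrected) and the endothelial markers PECAM1 (1.69-fold) and CDH5 (4.90-fold) rose. CDH5 lay near the floor, with a mean of 0.08 CPM with DMSO and 0.39 CPM with AMG900. The part of these markers in the results was not tested. Transcripts rich in G and C had higher fold changes than others (Spearman's rho of 0.49 between GC content and log2 fold change over the genes of A549 and 0.47 over those of H1792, as a description), so the changes below are given with a correction for GC content where it alters them. Nothing in the labels says that replicates came from separate cultures on separate days, so p-values measure the spread between these libraries.

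In A549 cells, AMG900 was followed by higher expression of 5 of the 10 members (BCL2L1, BAK1, BID, BMF and BIK) and lower expression of 1 (MCL1), by the edgeR quasi-likelihood test at an FDR of 0.01 over all genes tested. Without A549 DMSO replicate 1 the counts were 6 up and 2 down, with BAD added to the increases and BCL2L11 to the decreases. Of all 13174 genes tested in this line, 17.2% were called up and 17.8% down. In H1792 cells, 3 members rose (BAK1, BMF and BIK) and 3 fell (BCL2, MCL1 and PMAIP1), where 16.2% of the 15017 genes tested were called up and 18.8% down. The changes thus ran the same way in both lines for MCL1, BAK1, BMF and BIK. With GC content corrected, only BMF and BIK were called in both lines. The counts were then 6 up and 1 down in A549 (4 and 1 with length added) and 3 and 2 in H1792. The A549 decrease was then BAD in place of MCL1. Without a GC correction, the median log2 fold change over the members was 0.41 in A549 and 0.21 in H1792, against -0.01 and 0.01 over all genes tested. The median was not computed with GC content corrected. That correction turned the H1792 values of BCL2L1, BID and BAD negative and that of PMAIP1 positive, so the medians are not read as a shift of the members. These are levels relative to the rest of the RNA in bulk samples, in which a change in every cell and a change in the share of cells that express a gene cannot be told apart.

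**Figure D1:**
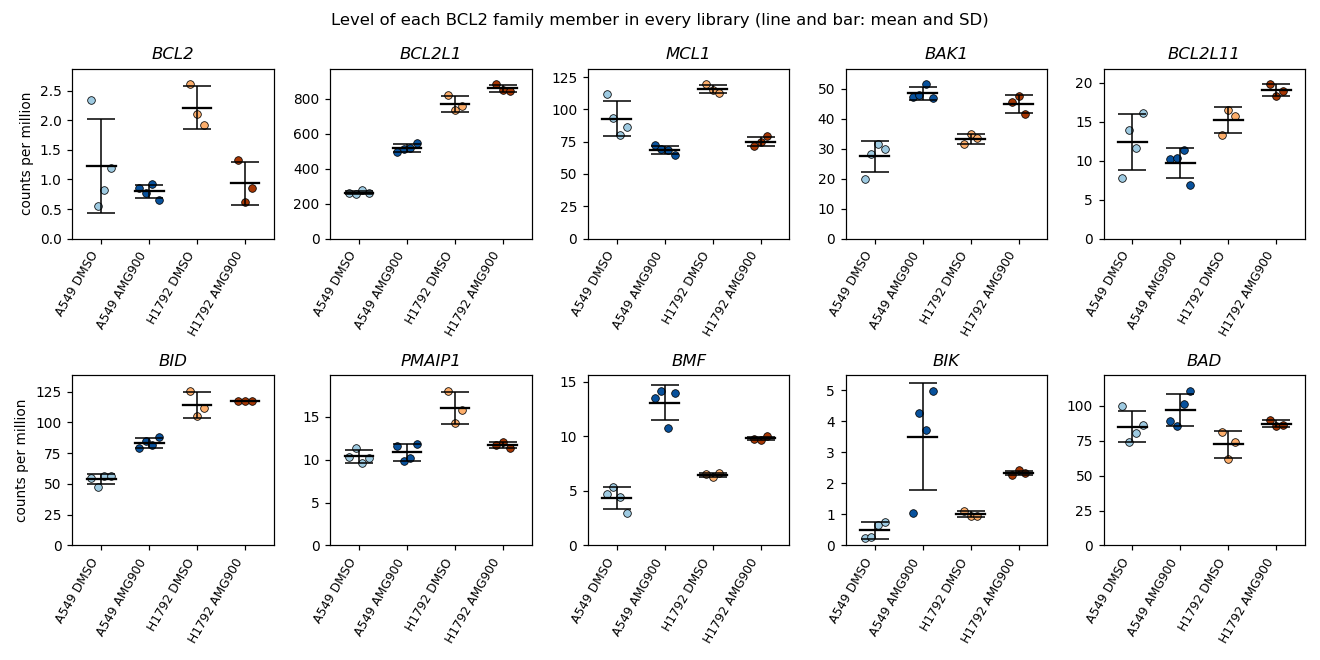
CPM of each member in every library, one panel per gene with its own linear axis from 0, where points are libraries and lines and bars give the mean and SD of each group (n = 4 in A549, n = 3 in H1792). BCL2L1 in A549 lay between 255 and 278 with DMSO and between 498 and 548 with AMG900, while BIK in A549 with AMG900 spread from 1.04 to 4.98.

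BCL2L1 (ENSG00000171552, chr20:30252255-30311792, minus strand) had the highest level per kilobase of any member in every group. Its level in the 4 A549 DMSO libraries was 260, 255, 278 and 260 CPM, and in the 4 A549 AMG900 libraries 498, 513, 519 and 548 CPM. All treated libraries lay far above all controls, with means of 263 ± 9.91 and 519 ± 21.1 CPM (SD, n = 4 each). The increase was 1.97-fold (log2 fold change 0.98, SE 0.06, edgeR adjusted p = 1.3e-08). In H1792, BCL2L1 stood at 821, 735 and 759 CPM with DMSO and at 886, 851 and 844 CPM with AMG900. The H1792 groups did not overlap either, but the difference was small and was not called (log2 fold change 0.16, SE 0.05, edgeR adjusted p = 0.0325), though it was called without H1792 DMSO replicate 1 (0.18, adjusted p = 0.0015). With GC content corrected, the H1792 value was -0.13 and the A549 value 0.64, of which only the A549 one passed the FDR of 0.01.

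MCL1 (chr1:150533371-150552214, minus strand), which binds BIM and NOXA, was lower with AMG900 in both lines. Its level was 112, 93.0, 80.5 and 86.5 CPM in the A549 DMSO libraries and 72.6, 69.1, 68.3 and 64.4 CPM in those with AMG900. The A549 groups did not overlap, and the log2 fold change was -0.43 (SE 0.10, edgeR adjusted p = 0.0022), or -0.34 without A549 DMSO replicate 1 (adjusted p = 4.1e-04). In H1792, MCL1 fell from 120, 115 and 113 CPM to 71.6, 74.5 and 79.1 CPM. The H1792 decrease had a log2 fold change of -0.62 (SE 0.06, edgeR adjusted p = 1.9e-05), with the groups well apart. After the GC correction the H1792 decrease was -0.52 and still called, while the A549 value of -0.28 was not (adjusted p = 0.0281).

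BCL2 (chr18:60790579-60987361, minus strand), the founding member of the family, had few counts in A549 and more in H1792. A549 libraries had 6 to 20 counts with DMSO and 9 to 17 with AMG900, or 2.35, 0.55, 0.82 and 1.19 CPM against 0.85, 0.77, 0.92 and 0.65 CPM. These groups overlapped and no difference was detectable at this depth (log2 fold change -0.44, 95% confidence interval -1.40 to 0.51). H1792 libraries held 84 to 171 BCL2 counts with DMSO and 31 to 104 with AMG900, with 2.61, 2.11 and 1.91 CPM under DMSO and 1.34, 0.62 and 0.85 CPM under AMG900. The decrease in H1792 was the largest of any member in that line (log2 fold change -1.22, SE 0.28, edgeR adjusted p = 0.0042), and it was not called without H1792 AMG900 replicate 2 (adjusted p = 0.0151) or without replicate 3 of that group (adjusted p = 0.0225).

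BAK1 (chr6:33540324-33548070, minus strand), the only effector among the members, was higher with AMG900 in both lines. The A549 DMSO libraries had 19.97, 28.3, 31.6 and 29.7 CPM and the AMG900 libraries 47.3, 47.7, 51.5 and 46.9 CPM. No library of one group reached the other, and the increase was 1.73-fold (log2 fold change 0.79, SE 0.12, edgeR adjusted p = 8.3e-05), or 0.69 on the log2 scale without A549 DMSO replicate 1. H1792 went from 31.4, 34.8 and 33.6 CPM to 45.4, 47.4 and 41.5 CPM, a 1.35-fold increase (log2 fold change 0.43, SE 0.07, edgeR adjusted p = 7.0e-04). BAK1 transcripts are rich in G and C (58.8%, against 44.7% for MCL1). With GC content corrected the log2 fold change was 0.43 in A549 and still called, and 0.13 in H1792, where it was no longer called (adjusted p = 0.209). With transcript length added to that correction the A549 call was lost too (0.39, adjusted p = 0.0158).

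BIK (chr22:43506756-43525718, plus strand), a BH3-only protein that resides at the endoplasmic reticulum, had the largest fold change in A549 and the largest increase in H1792. It was nearly silent in A549 with DMSO, at 0.23, 0.27, 0.67 and 0.77 CPM from 1 to 13 counts per library. With AMG900 the same line had 1.04, 4.28, 3.72 and 4.98 CPM from 11 to 77 counts. Replicate 1 with AMG900 lay far below the other treated libraries but above every control. The increase was 6.35-fold (log2 fold change 2.67, SE 0.49, 95% confidence interval 1.63 to 3.71, edgeR adjusted p = 4.2e-04). In H1792 the libraries were tight, at 1.12, 0.96 and 0.96 CPM with DMSO and 2.28, 2.42 and 2.33 CPM with AMG900. The 2.30-fold increase there (log2 fold change 1.20, SE 0.18, edgeR adjusted p = 3.6e-04) was the only one in H1792 of at least 2-fold, and both increases were still called with GC content corrected (2.41 and 0.96).

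BMF (chr15:40380091-40401093, minus strand), a BH3-only protein tied to the dynein light chain of the cytoskeleton, rose in both lines. Its level in A549 was 4.70, 5.37, 4.48 and 2.97 CPM with DMSO and 13.5, 14.2, 10.7 and 14.03 CPM with AMG900. The treated libraries lay well above the controls, and the fitted increase was 3.05-fold (log2 fold change 1.61, SE 0.20, edgeR adjusted p = 1.2e-05). H1792 libraries had 6.51, 6.28 and 6.61 CPM with DMSO and 9.77, 9.70 and 10.0 CPM with AMG900, a 1.52-fold increase (log2 fold change 0.60, SE 0.09, edgeR adjusted p = 3.2e-04). After the GC correction both calls stood, at 1.39 and 0.39.

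BMF and BAK1 rose in both lines and have an entry in the RefSeq promoter table (GRCh38.p14), so the 250 bases upstream of their start are shown, the first entry for each gene, 5′ to 3′ on the gene's strand. Capitals mark the GC box, spelled GGGCGG and searched on both strands, where its complement reads CCGCCC.
BMF: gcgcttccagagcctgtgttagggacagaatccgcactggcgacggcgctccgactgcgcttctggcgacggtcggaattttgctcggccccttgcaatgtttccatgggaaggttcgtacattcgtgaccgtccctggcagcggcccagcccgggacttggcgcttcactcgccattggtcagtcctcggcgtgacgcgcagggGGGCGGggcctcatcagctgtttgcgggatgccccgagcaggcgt
BAK1: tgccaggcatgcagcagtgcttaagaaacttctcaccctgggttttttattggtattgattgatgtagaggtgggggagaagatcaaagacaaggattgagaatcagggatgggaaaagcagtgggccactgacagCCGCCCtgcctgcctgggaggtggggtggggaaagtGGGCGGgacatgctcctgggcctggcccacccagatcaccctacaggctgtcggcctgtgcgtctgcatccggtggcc
The BMF stretch (chr15:40108880-40109129, minus strand) held 1 GC box and the BAK1 stretch (chr6:33580277-33580526, minus strand) held 2, a motif that 42.6% of the 35116 promoters in the table hold at least once. Each also held 1 CCAAT box (letters CCAAT, either strand), as did 32.0% of all promoters, and neither held an E-box (CACGTG, 6.35%) or the forkhead letters GTAAACA (2.98%), which the promoter of BCL2L11 held once. The first promoter entry of BCL2L1 held none of these 4 motifs. The first entries of PMAIP1 and BID held 4 GC boxes each, that of BCL2L11 3, that of BAD 1 and that of BCL2 0. None of these members was called up in both lines. The second entry of BMF held 0 GC boxes, and the part of the motif in the increases was not tested. MCL1 and BIK were not matched in the table.

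BID (chr22:18216904-18257536, minus strand), which links death receptors to mitochondria once caspase 8 has cleaved it, rose in A549. The A549 values were 54.8, 47.5, 56.7 and 56.5 CPM with DMSO and 79.2, 84.8, 81.5 and 87.9 CPM with AMG900. Treated and control libraries were well apart, and the increase was 1.55-fold (log2 fold change 0.63, SE 0.08, edgeR adjusted p = 2.6e-05). In H1792, by contrast, 126, 105 and 112 CPM with DMSO enclosed the 117, 118 and 117 CPM with AMG900. The H1792 log2 fold change of 0.04 (95% confidence interval -0.11 to 0.19) lay wholly below the A549 increase.

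PMAIP1 (chr18:57567228-57571537, plus strand), the partner of MCL1, was lower with AMG900 in H1792. The A549 libraries did not separate, with 10.3, 11.4, 9.64 and 10.2 CPM under DMSO and 11.6, 9.83, 10.2 and 11.8 CPM under AMG900 (log2 fold change 0.06, 95% confidence interval -0.24 to 0.36). The H1792 libraries had 18.04, 14.3 and 15.8 CPM with DMSO and 11.7, 12.04 and 11.4 CPM with AMG900. The fall (log2 fold change -0.45, SE 0.10, edgeR adjusted p = 0.0029) was lost in 4 of the 6 fits that left out 1 library, all but those without H1792 DMSO replicate 1 or 2 (adjusted p from 6.5e-04 to 0.0158 over the 6). PMAIP1 has the lowest GC content of the members, 36.7%. With GC content corrected its log2 fold change was 0.05 in H1792 and was not called, and 0.54 in A549, where it was called an increase (adjusted p = 0.0057), the only A549 setting in which it was called. With transcript length added the A549 value was 0.46 and was not called (adjusted p = 0.0143).

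BCL2L11 (chr2:111876955-111926021, plus strand) did not pass the test in either line. The A549 libraries overlapped, at 7.75, 13.9, 11.7 and 16.1 CPM with DMSO and 10.2, 10.3, 11.3 and 6.85 CPM with AMG900, with a log2 fold change of -0.40 (SE 0.21, edgeR adjusted p = 0.123). Replicate 1 was the lowest A549 control, and without it the value was -0.53 and was called (adjusted p = 0.0087). The H1792 libraries moved the other way without overlap, from 13.3, 16.6 and 15.8 CPM to 19.8, 18.3 and 19.0 CPM (log2 fold change 0.33, SE 0.09, edgeR adjusted p = 0.0139). The H1792 increase was called by DESeq2 (0.32, adjusted p = 0.0063), without H1792 DMSO replicate 2 (0.39, adjusted p = 0.0070) and with GC content corrected (0.36, adjusted p = 0.0039). MIR4435-2HG overlaps BCL2L11 on the opposite strand and had more counts than it, 174 to 555 per A549 library against 33 to 272, and whether the authors counted by strand is not given in the sources used here, so the BCL2L11 values are uncertain.

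BAD (chr11:64037302-64052176, minus strand), whose protein is held inactive by 14-3-3 proteins when phosphorylated, did not pass the test in either line. A549 libraries had 99.9, 74.2, 80.6 and 86.3 CPM with DMSO and 89.6, 85.7, 101 and 111 CPM with AMG900 (log2 fold change 0.19, edgeR adjusted p = 0.134). Replicate 1 was the highest A549 control, and without it BAD was called up (0.27, adjusted p = 0.0092). H1792 libraries had 81.7, 61.9 and 73.8 CPM with DMSO and 90.2, 85.4 and 86.2 CPM with AMG900 (log2 fold change 0.27, edgeR adjusted p = 0.0278), and BAD was called up there without H1792 DMSO replicate 1 (0.34, adjusted p = 3.3e-04). Both signs depended on the GC correction. BAD has the highest GC content of the members, 66.3%, and with it corrected the log2 fold change was -0.27 in A549, where it was called (adjusted p = 0.0046), and -0.10 in H1792. The A549 call thus ran in opposite directions with replicate 1 left out and with GC content corrected. BAD also overlaps GPR137 on the opposite strand, which had 257 to 1131 counts in A549 against 425 to 1881 for BAD. Genes that overlap BCL2L1, MCL1 and BAK1 had fewer counts than these members in every library, and BMF-AS1, on the opposite strand of BMF, was not analysed here.

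**Figure D2:**
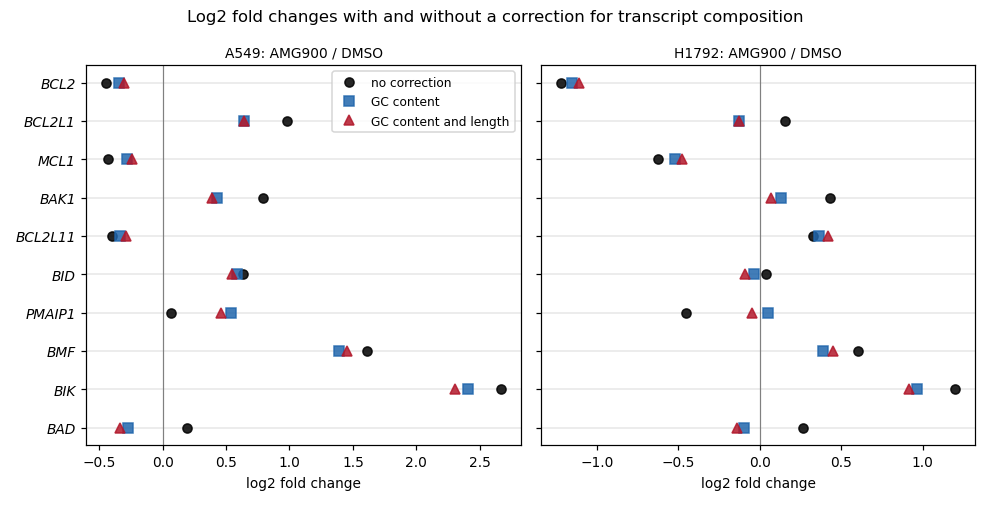
Log2 fold change of each member with AMG900 in A549 (left) and H1792 (right) without a correction (circles), with a correction for transcript GC content (squares) and with one for GC content and transcript length (triangles). The values of BCL2L1, BAK1 and BAD moved down with the correction and those of PMAIP1 moved up in both lines, and BAD went from 0.19 to -0.27 in A549.

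The response differed between the lines for 3 members, all with the smaller increase in H1792. An interaction term of line and treatment, fitted over all 14 libraries, tested the difference itself, where 9.17% of the 14769 genes tested were called lower in H1792 and 5.37% higher. This fit scaled all 14 libraries together, so its values are not plain differences of the log2 fold changes fitted within each line. For BCL2L1 the H1792 effect minus the A549 effect was -0.90 on the log2 scale (SE of the difference 0.09, edgeR adjusted p = 2.7e-07). BID followed with an interaction of -0.67 (SE 0.11, edgeR adjusted p = 2.7e-04) and BMF with -1.09 (SE 0.22, edgeR adjusted p = 0.0014). These 3 calls held under each alternative scaling and filter, with the GC corrections and without any 1 library, and only the minimum of a 2-fold difference removed BCL2L1 and BID. The median interaction over the members was -0.63, against -0.10 over all genes tested. With the size factors of DESeq2 the median over all genes tested was -0.02, so the lean towards lower values in H1792 depended on the scaling.

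For the other members the difference was not called. BIK had the largest point estimate, -1.55, with a 95% confidence interval of -2.73 to -0.36 (edgeR adjusted p = 0.0527), and was called without A549 AMG900 replicate 1, the low library (-1.82, adjusted p = 0.0032). PMAIP1 had a difference of -0.59 (edgeR adjusted p = 0.0143), which was called without H1792 DMSO replicate 2 (-0.67, adjusted p = 0.0090) and with a minimum of 10 counts in every library (-0.60, adjusted p = 0.0086). BAK1 had one of -0.43 (edgeR adjusted p = 0.0444) and BCL2L11 one of 0.67 (edgeR adjusted p = 0.0549). MCL1, which fell in both lines, differed by -0.28 (95% confidence interval -0.52 to -0.03, edgeR adjusted p = 0.0962), and this was called without A549 DMSO replicate 1 (-0.36, adjusted p = 0.0050), as was BCL2L11 (0.79, adjusted p = 0.0055). BAD had a difference of -0.01 (95% confidence interval -0.33 to 0.31) and BCL2 one of -0.87 (95% confidence interval -1.98 to 0.24). No member was called higher in H1792 by edgeR or by DESeq2, and 1 had an unadjusted p under 0.05 in that direction.

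**Figure D3:**
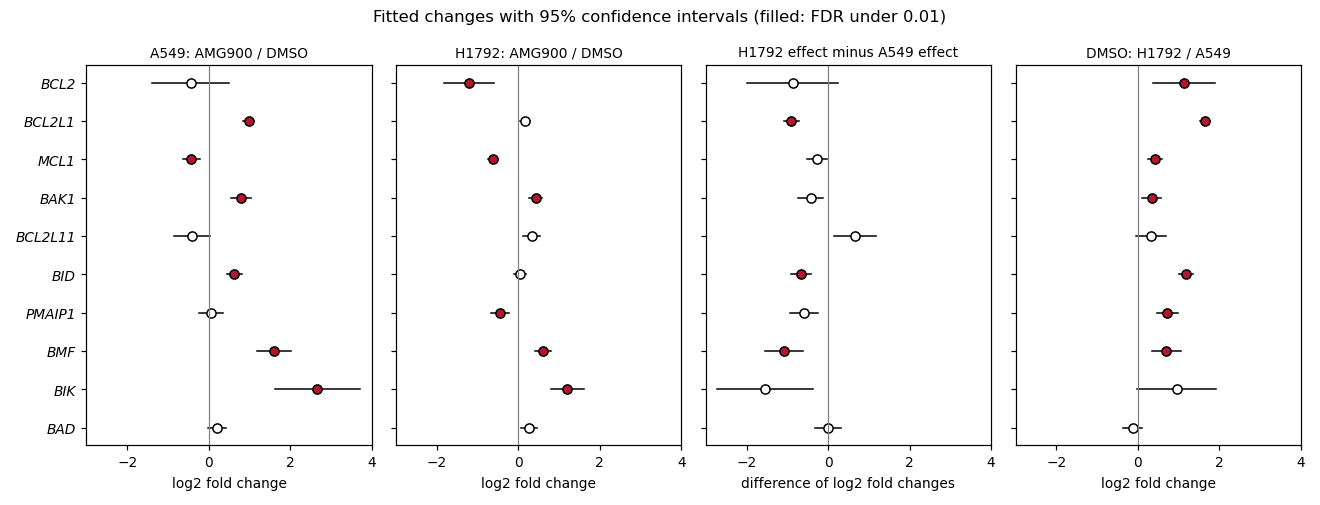
Fitted log2 fold changes (points) with 95% confidence intervals (lines) for AMG900 in A549, AMG900 in H1792, the H1792 effect minus the A549 effect and H1792 against A549 under DMSO, with filled points for an FDR under 0.01. In the third panel BCL2L1, BID and BMF are filled and lie at -0.90, -0.67 and -1.09, and in the last panel BCL2L1 lies at 1.65.

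Without the drug, 7 of the 10 members were higher in H1792 than in A549 and none was lower by edgeR, DESeq2 or an unadjusted p under 0.05, where 34.2% of all genes tested were called higher and 31.9% lower. The lines came in separate tables, so a difference of line and one of library preparation or sequencing cannot be told apart. BCL2L1 had the largest difference, 3.14-fold (log2 difference 1.65, SE 0.06, edgeR adjusted p = 1.0e-14), followed by BID (2.27-fold, log2 difference 1.18, SE 0.08, edgeR adjusted p = 1.2e-10). BCL2 (1.14), PMAIP1 (0.73), BMF (0.70), MCL1 (0.43) and BAK1 (0.34) were also called higher on the log2 scale. The calls of BCL2 and BAK1, with adjusted p = 0.0086 and 0.0087, were lost under scaling by total counts and held in 4 of the 14 fits without 1 library. With GC content corrected, alone or with length, 6 members were higher in H1792 and 1 was lower. The BAK1 difference was then 0.20 (adjusted p = 0.0989) or, with length, 0.12 (adjusted p = 0.325), and PMAIP1 was not called with length added (0.39, adjusted p = 0.0123). BCL2L11 (0.33), BIK (0.96) and BAD (-0.12) were not called, but BAD was called lower in H1792 with GC content corrected (-0.45, adjusted p = 2.5e-06), and BCL2L11 was called higher with length added (0.56, adjusted p = 0.0028).

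Per kilobase of the longest transcript (RPKM), BCL2L1 stood first and BAD second in every group, and BCL2 last. In A549 with DMSO the mean levels were 80.8 for BCL2L1 and 73.7 for BAD, whose libraries overlapped, then 21.6 for BID and 20.4 for MCL1, which also overlapped. BAK1 (12.4), PMAIP1 (5.47) and BCL2L11 (2.39) followed, each apart from its neighbours, and BMF (0.93), BIK (0.51) and BCL2 (0.16) closed the order with overlapping libraries. In H1792 with DMSO no neighbours overlapped, from 237 for BCL2L1 through 62.6 for BAD, 45.8 for BID, 25.4 for MCL1, 15.0 for BAK1, 8.45 for PMAIP1, 2.94 for BCL2L11, 1.38 for BMF and 1.06 for BIK to 0.30 for BCL2. With AMG900, BAK1 changed places with MCL1 in both lines, at 21.9 against 15.1 in A549 and 20.2 against 16.5 in H1792, without overlap. RPKM carries no GC correction. With GC content alone corrected, the BAK1 increase in H1792 and the MCL1 decrease in A549 were not called, while the BAK1 increase in A549 and the MCL1 decrease in H1792 were. BIK moved from a level of 0.51 to 3.69 in A549 and stood above BMF and BCL2L11 there, though its replicate 1 lay below both. With length taken as the union of exons, MCL1 and BAK1 stood above BID in A549 with DMSO (14.9, 12.4 and 12.2).

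**Figure D4:**
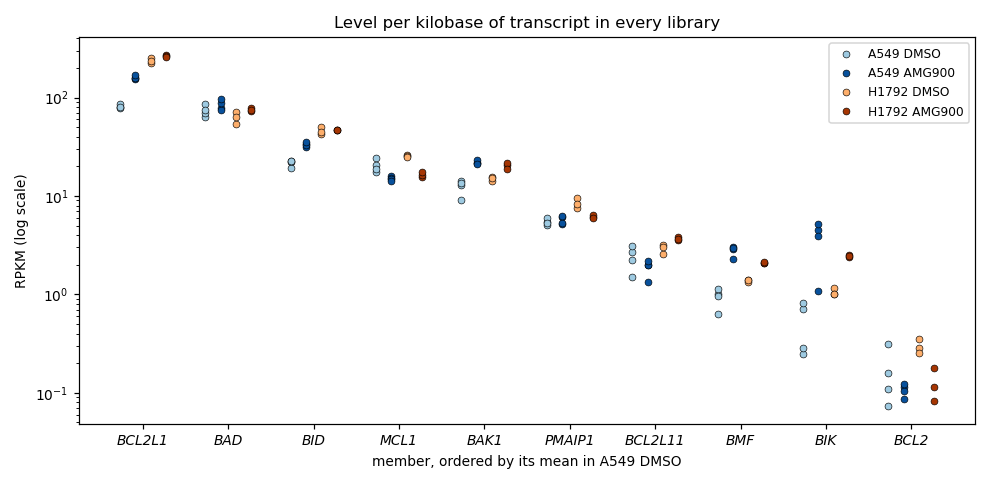
RPKM of each member in every library on a log axis, ordered by the mean in A549 with DMSO, where each point is a library and color gives the group. The levels span from 237 for BCL2L1 to 0.30 for BCL2 in H1792 with DMSO, and the BAK1 points lie above those of MCL1 with AMG900 in both lines. The values carry no GC correction.

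Genes around the members in the pathway were followed as 5 lists, whose counts stand beside the 17.2% up and 17.8% down of all genes tested in A549 and the 16.2% and 18.8% in H1792. These lists too were chosen with earlier results of these data known. Of 11 other BCL2 family genes, 8 were tested in each line, and 2 fell and 0 rose by edgeR in each. BAX and BBC3, which also belong to the family, were neither in this list nor among the members. The A549 decreases were BCL2L12 (log2 fold change -0.98) and the mitophagy receptor BNIP3 (-0.34), and those in H1792 were BNIP3 (-0.29) and BNIP3L (-0.49). DESeq2 called 0 up in either line, and 1 gene was up in each at an unadjusted p under 0.05. With GC content corrected, 1 rose and 3 fell in A549, or 2 and 3 with length added. In H1792, 0 rose and 3 fell under either correction. The median log2 fold change of the list was 0.09 in A549 and -0.09 in H1792, beside -0.01 and 0.01 over all genes tested.

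The death receptor arm, which acts upstream of BID, had 5 of 9 tested genes up in A549 by edgeR and by DESeq2. In that line 0 were down by either tool or at an unadjusted p under 0.05, and 1 was called down with GC content corrected. CASP10, an initiator caspase, rose by 1.13 and TNFRSF10B, a receptor of TRAIL, by 0.72 on the log2 scale. TRADD, TNFRSF10A and CFLAR were the others. In H1792, 0 of 10 rose (1 at an unadjusted p under 0.05 and 0 with DESeq2) and TNFRSF10B fell by 0.22. DESeq2 and an unadjusted p under 0.05 gave 3 down there, and with GC content corrected 1 rose and 4 fell. In the interaction 5 of 10 were lower in H1792 and 0 higher (8 and 0 at an unadjusted p under 0.05), where 9.17% and 5.37% of all genes tested were called, with TNFRSF10B at -1.02 (edgeR adjusted p = 2.5e-08). The 5 were the genes called up in A549, and both tests use the same A549 libraries, so the pair of counts is not independent. The median log2 fold change of the list was 0.59 in A549 and -0.16 in H1792.

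In the list of apoptosome and caspase genes, 2 of 11 rose in A549, CASP9 (0.49), the initiator of the apoptosome, and HTRA2 (0.33). In the same line 2 fell, CYCS (-0.74), which encodes cytochrome c, and CASP2 (-0.92). These shares are close to those of all genes tested, and with GC content corrected 3 rose and 3 fell. H1792 had 0 of 11 called in either direction by edgeR and by DESeq2, and 2 were up and 1 down at an unadjusted p under 0.05. With GC content corrected 3 rose and 1 fell in H1792. The list of inhibitors of apoptosis held XIAP, BIRC2, BIRC3, BIRC6 and BIRC7, and BIRC5 was not in it. Of these, 3 of 5 rose in A549, led by BIRC7 (1.22) and BIRC3 (1.13), and BIRC6 fell by 0.39, a call lost with GC content corrected. In H1792, 0 of 4 were called by either tool, with 0 up and 3 down at an unadjusted p under 0.05, while with GC content corrected 1 was called up and 0 down. Median log2 fold changes were 0.02 in A549 and 0.07 in H1792 for the apoptosome and caspases, and 0.55 and -0.23 for the inhibitors.

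Of the partners and ubiquitin enzymes of the members, 6 of 12 fell and 0 rose in A549 by edgeR (5 and 0 by DESeq2, with 1 up at an unadjusted p under 0.05), with the largest decreases in YWHAQ (-1.09) and YWHAZ (-0.79), which encode 14-3-3 proteins of the kind that hold BAD. In H1792, 5 of 12 fell, led by VDAC3 (-0.78) and YWHAZ (-0.76), and 2 rose, VDAC2 (0.28), the mitochondrial channel that binds BAK, and DYNLL1 (0.22), the dynein light chain that binds BIM. With GC content corrected, 1 rose and 5 fell in A549 (1 and 4 with length added) and 3 rose and 5 fell in H1792. No gene of this list differed between the lines by edgeR without a correction over all libraries. At an unadjusted p under 0.05, 3 were higher and 1 lower in H1792, and DESeq2 called 2 and 1. With GC content corrected 1 was called higher and 1 lower (0 and 1 with length added). Without A549 DMSO replicate 1, 1 was called higher and 0 lower. The median log2 fold change of the list was -0.23 in A549 and -0.17 in H1792.

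Genes with a pattern most like a member were found among 8681 genes by Pearson's r of log2 CPM over the 14 libraries after the mean of each line was subtracted, as a description with no test. For MCL1 they were SLC35F5 (r = 0.98), NPEPPS (0.97) and STT3B (0.97). For PMAIP1 they were COX14 (0.93), RRP7BP (0.91) and DDTL (0.91), and for BCL2L11 ITSN1 (0.93), CCDC58 (0.93) and RBM4 (0.91). The points share the treatment and the libraries' GC trend.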

How the data were processed

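RNA sequencing counts of 14 libraries were analysed. The authors deposited one table per cell line holding raw read counts per gene symbol, not normalized. Per the labels, STAR and HTSeq were used with hg19 (GRCh37); versions, annotation and strand setting are not given in the sources used here. From H1792, 28 entries named by dates instead of symbols were left out. Counts were normalized with TMM factors and filtered with filterByExpr, and groups were compared with the quasi-likelihood test of edgeR 4.0.16 (R 4.3.3) with Benjamini-Hochberg adjustment over all genes tested, at an FDR of 0.01. AMG900 was compared with DMSO in each line without a replicate term. The interaction and the DMSO comparison came from one fit over all libraries. CPM values are scaled to the TMM-adjusted counts on the tested genes of a line, RPKM divides them by the longest transcript of GENCODE v44 lifted to GRCh37, and log2 CPM used a prior count of 2. GC content was corrected by a natural spline with 5 degrees of freedom in each library.

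The biological coefficient of variation was 12.8% in A549 and 9.60% in H1792, and total counts ranged from 4254644 to 79902934, so genes of few counts such as BCL2 and BIK are the least precise. Replicates of a group differed by more than counting error (chi-square per gene 3.33 to 48.7) and were counted separately. Same-numbered libraries did not deviate together (correlations from -0.06 to 0.04), so the numbers were not taken as pairs. In simulated data with known changes in 200 genes, the test recovered 89% of 2-fold and 48% of 1.5-fold changes in A549. It recovered 87% and 62% in H1792, and 60% and 18% for the interaction. Of the calls in the simulated data, 2.14% were false in A549, 3.87% in H1792 and 3.70% for the interaction, all above the FDR set. Recovery was not split by count level, so it is not read for genes of few counts such as BCL2 and BIK. Positions, lengths and GC content came from the annotation, which matched 22388 of the 26786 names by current symbol and 1250 by an older one. Alternatives were DESeq2 1.42.0, its size factors, total counts, no filter, at least 10 counts in every library, the GC corrections, a replicate block, an FDR of 0.05, a 2-fold minimum and each library left out. The members and lists were chosen with earlier results of these data known. Text on other genes names, for each list and line, up to 2 genes with the largest increase and 2 with the largest decrease among those called, and TRADD, TNFRSF10A and CFLAR were named after their values were seen to complete a count.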

Additional observations from a re-analysis of the deposited data

Results flagged for a closer look

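The effect of AMG900 differed between A549 and H1792, by a test of the difference itself, for 3 of the 10 members. BCL2L1 had a log2 fold change of 0.98 in A549 and 0.16 in H1792, with an interaction of -0.90 (edgeR adjusted p = 2.7e-07), and every AMG900 library lay above every DMSO library in both lines. For BID the values were 0.63 and 0.04, with an interaction of -0.67 (edgeR adjusted p = 2.7e-04), and the H1792 libraries overlapped. For BMF they were 1.61 and 0.60, with an interaction of -1.09 (edgeR adjusted p = 0.0014) and no overlap in either line. The interaction fit scaled all libraries together, so its values are not plain differences of the log2 fold changes given. The lines differ in table, depth and medium as well as in origin, and these cannot be told apart here. None of the 20 sets of 4 A549 libraries (10 members with 2 treatments) held a library far enough from the others to be singled out by Dixon's criterion.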

How the results depend on the processing

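Directions and calls of the members were recomputed under 9 or 10 alternative settings and without each library in turn. Calls made in every fit except under a 2-fold minimum were those of BCL2L1, BID, BMF and BIK in A549, of MCL1, BMF and BIK in H1792, of BCL2L1, BID and BMF in the interaction, and of BCL2L1, MCL1, BID and BMF between the lines under DMSO; BIK and BCL2 were left untested by the minimum of 10 counts in every library, other than within H1792.

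Requiring a 2-fold change left 2 members up and 0 down in A549, 1 up and 1 down in H1792, 1 lower in H1792 for the interaction and 3 higher in H1792 under DMSO. An FDR of 0.05 gave 6 up in H1792 and 5 lower in the interaction. With GC content corrected, alone or with length, 1 member was lower in H1792 under DMSO. Without one library at a time, A549 had 5 to 6 members up and 1 to 2 down, H1792 had 3 to 5 up and 1 to 3 down, and the interaction had 0 to 1 higher in H1792. The highest A549 and interaction values came without A549 DMSO replicate 1, 5 up in H1792 came without H1792 DMSO replicate 1, and 1 down came without H1792 AMG900 replicate 2 or 3. The replicate block gave 5 up and 1 down in A549, 3 and 3 in H1792 and 0 and 3 in the interaction, and changed no call; it was not fitted for the lines under DMSO.

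Signs turned as follows. GC content alone, then with length, gave BAD in A549 -0.27 and -0.33, BCL2L1 in H1792 -0.13 and -0.13, BID in H1792 -0.036 and -0.091, BAD in H1792 -0.097 and -0.14, and the BAD interaction 0.13 and 0.13; GC content alone gave PMAIP1 in H1792 0.053. Total counts gave PMAIP1 in A549 -0.015, BID in H1792 -0.024 and the BAD interaction 0.084. The BAD interaction was also 0.076 with DESeq2, 0.071 with its size factors, 0.0041 without a filter and 0.0046 with the replicate block. Without one library at a time BID in H1792 ranged from -0.025 to 0.091 and the BAD interaction from -0.11 to 0.078. The cause was not tested.

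Over all genes, a 2-fold minimum left 695 up and 769 down of 2265 and 2340 in A549, 476 and 781 of 2439 and 2827 in H1792, and 2973 and 2810 of 5050 and 4712 between the lines. H1792 had 3689 up at an FDR of 0.05, and 1382, 1464 and 1524 up without H1792 AMG900 replicate 1, AMG900 replicate 2 or DMSO replicate 3, with 1853 down in the first. Calls in the interaction were 793 higher and 1355 lower in H1792, against 1416 and 1450 with DESeq2, 1319 and 2297 at an FDR of 0.05, 395 and 516 with a 2-fold minimum, and 1012 and 1033 with the size factors of DESeq2 or 988 and 1047 with total counts. Total counts moved the median difference between the lines under DMSO from 0.04 to -0.07.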
